A study of Mus musculus with 6 samples.

Results

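The genes described here are 39 general macrophage and myeloid genes, among 29018 genes of a bulk RNA-seq table. They were picked by name, and some of them were chosen because they were higher in the KO libraries of these same data. The count and FPKM values of KO against WT therefore belong to the choice: levels and changes of these 39 genes are given as a description, with no p-value, and calls on them are counted only to describe the fit. The libraries came from osteoblasts, the bone-forming cells, cultured from the calvaria (skull roof) of newborn mice and sequenced after osteogenic differentiation. The mice were WT or KO for NDR1, a serine/threonine kinase encoded by Stk38, with 3 libraries per genotype and poly(A) RNA as the starting material. Strain, sex, the design of the KO allele and the length of differentiation are not given in the labels. Nothing says that the replicates came from different mice or dishes, so p-values reflect the variation among these 6 libraries alone, and that variation could be technical.

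Macrophages arise from myeloid progenitors under the transcription factor PU.1, the product of Spi1, and depend on signals through the receptor of colony-stimulating factor 1. They recognise antibody-coated particles through Fc receptors that signal through ITAM adaptors, bind and migrate with β2 integrins, and digest what they take up in phagosomes and lysosomes. In bone, macrophages share some of these genes with osteoclasts, the bone-resorbing cells that form by fusion of the same precursors. Osteoblast cultures from calvaria can hold such cells. In bulk RNA, fewer cells of a type and less RNA per cell cannot be told apart.

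Total counts per library lay between 61461870 and 76159034. Stk38 stood at 4.17, 3.98 and 4.31 FPKM (fragments scaled to transcript length and library size) in KO and at 5.83, 6.197 and 6.35 FPKM in WT. The KO libraries were all below the WT libraries, with a log2 change of -0.61 ± 0.05 (SE). Which part of Stk38 the KO allele lacks is not given, so the reads that remain check the labels only in part. The summed level of 10 osteoblast markers was 42460 to 44801 CPM (counts scaled to library size) in KO and 59676 to 61505 CPM in WT. Nearly all of it came from 2 collagen genes, so the sum says little about the other markers. Mean levels in KO and WT were 23044.5 and 31683.5 CPM for Col1a1 and 20295.7 and 28885.6 CPM for Col1a2. Every other marker stood at 99.6 CPM or below in each library. Of these 10 markers, edgeR called 6 lower in KO and 0 higher (1 higher, Ibsp, at an unadjusted p under 0.05, and 0 by DESeq2 or limma). Bglap, an osteocalcin gene of mature osteoblasts, stood at 0.191 to 1.09 CPM, near 0 for a defining marker. Other osteocalcin genes were not in the list, so this value alone does not give the level of osteocalcin RNA. Between genotypes, edgeR called 2048 of 18221 tested genes higher in KO (11.2%) and 2131 lower (11.7%) at an adjusted p under 0.05. Higher genes made up 49.0% of the calls with TMM scaling, 63.0% with library totals alone and 64.4% with limma on log2(FPKM + 1).

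The promoters shown are those of 4 genes described below, the lysosomal protease Ctss, the integrin Itgam, the tetraspanin Cd53 and the integrin activator Apbb1ip. They are shown because the short purine-rich word GAGGAA, the core that PU.1 is known to bind, occurs in each of them. Capitals mark GAGGAA or its complement TTCCTC. Each runs 5′ to 3′ on the gene's own strand, from 170 bases before to 30 bases after the RefSeq transcript start (GRCm38.p6), at chr3:95526616-95526815 on the plus strand for Ctss, chr7:128062470-128062669 on the plus strand for Itgam, chr3:106790120-106790319 on the minus strand for Cd53 and chr2:22774157-22774356 on the plus strand for Apbb1ip.
Ctss: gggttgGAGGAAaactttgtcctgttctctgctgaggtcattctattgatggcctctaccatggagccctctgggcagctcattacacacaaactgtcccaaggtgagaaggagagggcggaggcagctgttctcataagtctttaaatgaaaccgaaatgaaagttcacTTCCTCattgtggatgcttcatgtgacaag
Itgam: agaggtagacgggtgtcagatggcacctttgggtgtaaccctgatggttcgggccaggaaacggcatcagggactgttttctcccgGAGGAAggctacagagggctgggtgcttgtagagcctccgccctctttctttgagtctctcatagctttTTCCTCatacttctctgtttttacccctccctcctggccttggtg
Cd53: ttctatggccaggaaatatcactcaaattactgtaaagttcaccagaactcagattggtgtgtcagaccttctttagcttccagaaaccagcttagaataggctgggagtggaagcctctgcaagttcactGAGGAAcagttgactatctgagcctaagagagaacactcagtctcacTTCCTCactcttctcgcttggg
Apbb1ip: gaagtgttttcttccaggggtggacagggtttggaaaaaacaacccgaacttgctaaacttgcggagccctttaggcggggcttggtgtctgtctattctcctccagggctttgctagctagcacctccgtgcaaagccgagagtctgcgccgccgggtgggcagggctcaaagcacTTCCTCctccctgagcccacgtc

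Of the 39 genes, 27 matched an entry of the RefSeq promoter table, which holds 250 bases before and 50 bases after each start. In this window of 300 bases, on either strand, GAGGAA was present for 19 of the 27 genes (70.4%) and for 31.2% of all 27025 genes of the table. The longer word GAGGAAGT, which contains GAGGAA, was present for 6 of the 27 genes (22.2%), among them Ctss, Cd53 and Apbb1ip, and for 3.69% of all genes. The TATA word TATAAA, read as a comparison, was present for 4 of the 27 (14.8%) and for 15.7% of all genes. A match describes letters in a window and not a bound site. The 12 genes without an entry are Adgre1, Cd52, Cd14, Itgb2, Lilrb4a, Tyrobp, Ncf4, Alox5ap, Csf1r, Spi1, Itgal and Lat2.

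All 39 genes passed the filter on low counts. The fit called 35 of them higher in KO and 0 lower, beside 11.2% and 11.7% of all tested genes. The genes not called were Csf3r, Cd52, Cd14 and Aif1. Some calls turned on 1 library: Fcgr4 was not called when any single library was left out, in DESeq2 or with the replicate block, Cd300a without KO replicate 2, WT replicate 1 or WT replicate 2, and Cd48 without KO replicate 1. Cd14 was called without KO replicate 2, and Cd52 without WT replicate 3, in DESeq2 and with library totals in place of TMM. In 38 of the 39 genes the KO values all lay above the WT values, against 19.2% of all tested genes, and Cd14 was the exception. Because the members were chosen on this contrast, these counts carry no further weight.

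**Figure D1:**
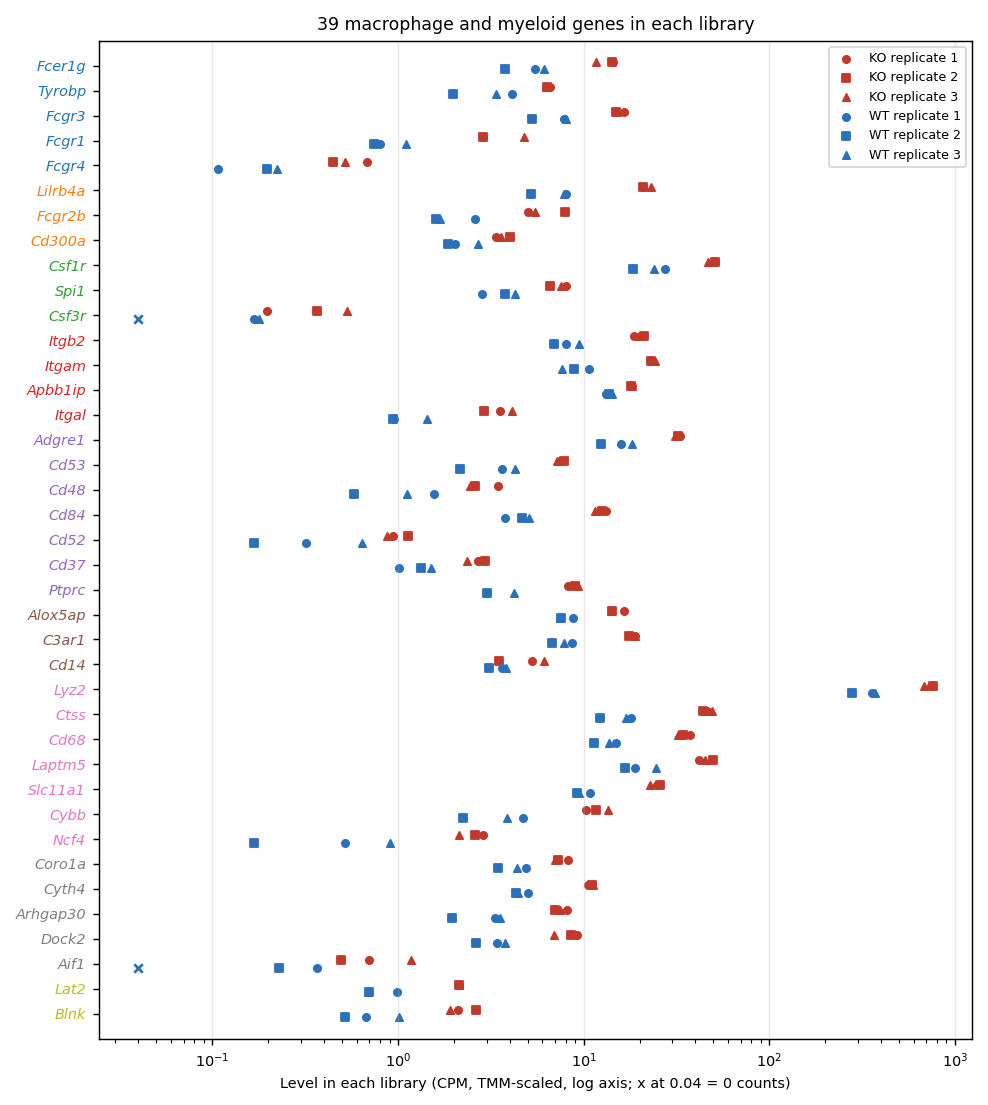
Level of each of the 39 genes in each library as TMM-scaled CPM on a log axis, ordered by role and then by mean FPKM, with gene names coloured by role. Red marks are the 3 KO libraries and blue marks the 3 WT libraries, the shape gives the replicate, and crosses at 0.04 stand for 0 counts (Csf3r in WT replicate 2 and Aif1 in WT replicate 3). Red marks lie right of blue marks in every row except that of Cd14, where they overlap.

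The median log2 change of the 39 genes was 1.36, with quartiles of 1.10 and 1.57, beside a median of 0.00 over all tested genes. The changes ran from 0.40 for Apbb1ip to 2.24 for Ncf4. At least 2-fold changes were seen for 34 genes and at least 3-fold changes for 9, and 32 genes lay within 0.5 log2 of the median. Levels spanned a far wider range than changes. In WT, Lyz2 (237 FPKM) and Ctss (10.7 FPKM) stood above 10 FPKM, 18 genes at 1 to 10 FPKM and 19 genes under 1 FPKM. Lyz2 alone gave 60.98% of the summed CPM of the genes in WT and 59.2% in KO. The sum of all 39 genes was 1255, 1265 and 1182 CPM in KO and 589, 461 and 604 CPM in WT, a ratio of 2.24. Without Lyz2 the sum was 499 to 508 CPM in KO and 181 to 233 CPM in WT, a ratio of 2.34.

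**Figure D2:**
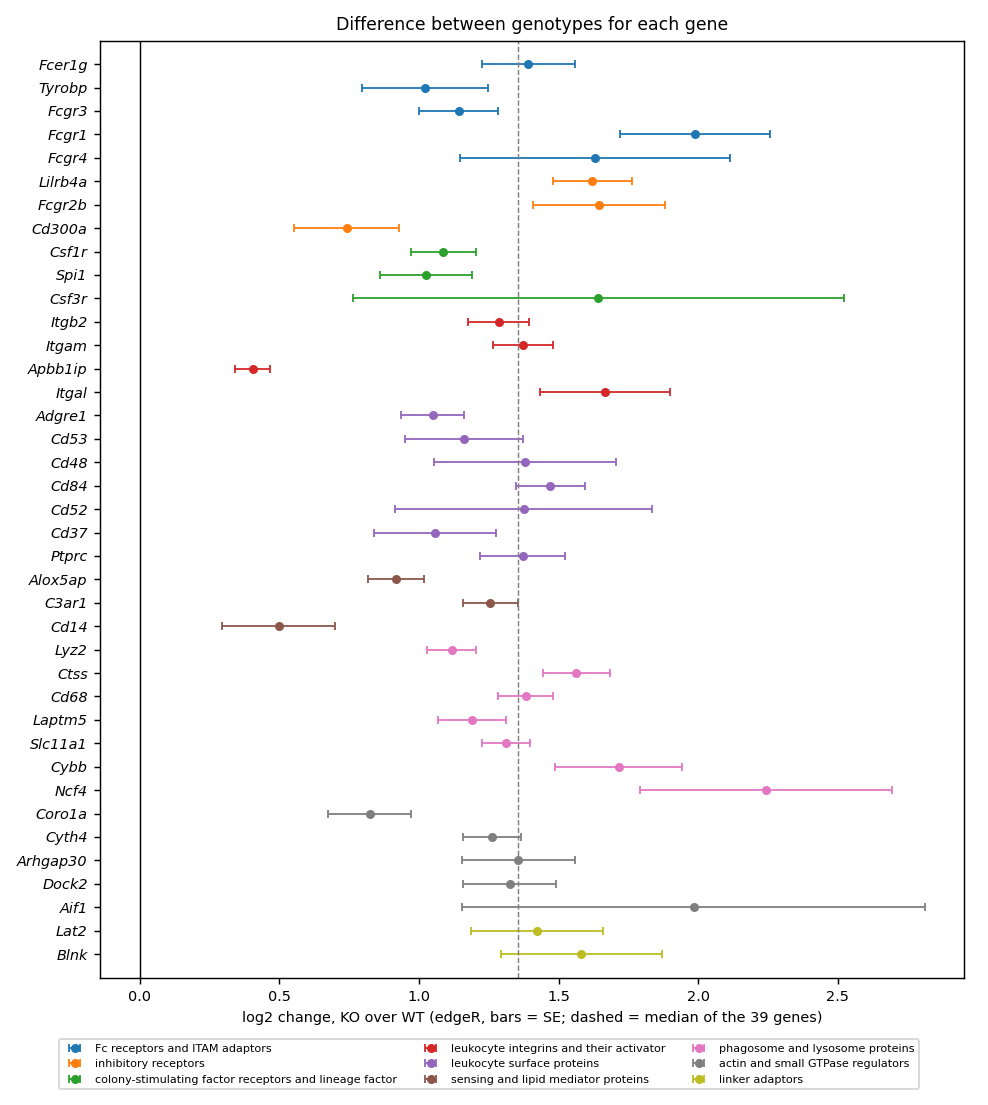
Log2 change of KO over WT for each of the 39 genes (points) with its standard error (bars), coloured by role. The solid line marks no change and the dashed line the median of 1.36. All points lie right of 0, from Apbb1ip (0.40) to Ncf4 (2.24), and the widest bars belong to genes of few counts such as Csf3r and Aif1.

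Among the Fc receptors and their ITAM adaptors, summed levels were 38.3 to 41.2 CPM in KO and 12.002 to 18.9 CPM in WT. Fcer1g, the signalling chain shared by activating Fc receptors, stood at 14.5, 14.2 and 11.6 CPM in KO and at 5.46, 3.78 and 6.14 CPM in WT. The lowest KO library was nearly 2 times the highest WT library, and the log2 change was 1.39 ± 0.17. Tyrobp, the DAP12 adaptor that serves TREM2 and related receptors, stood at 6.61, 6.36 and 6.27 CPM in KO and at 4.11, 1.98 and 3.38 CPM in WT. The KO libraries were close together while the WT libraries were spread, and the log2 change was 1.02 ± 0.22. Fcgr1, the high-affinity IgG receptor, stood at 2.87, 2.89 and 4.75 CPM in KO and at 0.795, 0.746 and 1.10 CPM in WT. KO replicate 3 was highest, the groups did not overlap, and the log2 change of 1.99 ± 0.27 was among the 3 largest. Fcgr3, a low-affinity activating IgG receptor, changed by 1.14 ± 0.14 on the log2 scale. Fcgr4, another activating receptor, had 28 to 52 counts in KO and 7 to 15 in WT, and a log2 change of 1.63 ± 0.48.

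The inhibitory receptors carry ITIM motifs and dampen the activating ones, and they were higher in the same libraries. Lilrb4a, an inhibitory immunoglobulin-like receptor, stood at 20.9, 20.951 and 22.9 CPM in KO and at 7.996, 5.21 and 7.84 CPM in WT. WT replicate 2 was lowest, the groups were far apart, and the log2 change was 1.62 ± 0.14. Its near-identical neighbour Lilrb4b changed by 1.49 ± 0.15, and how reads shared by such copies were counted is not given, so the split between them is uncertain. Fcgr2b, the inhibitory IgG receptor, stood at 5.03, 7.92 and 5.47 CPM in KO and at 2.60, 1.60 and 1.68 CPM in WT. KO replicate 2 was highest and no value overlapped, with a log2 change of 1.64 ± 0.24. The ratio of Fcgr2b to the activating Fcgr3, on FPKM, was 0.0907, 0.158 and 0.108 in KO and 0.0989, 0.0893 and 0.0620 in WT. These ratios of inhibitory to activating receptor overlapped between genotypes. Cd300a, an inhibitory receptor for phospholipids of dying cells, stood at 3.39, 4.03 and 3.60 CPM in KO and at 2.03, 1.86 and 2.70 CPM in WT. Its log2 change of 0.74 ± 0.19 was among the 3 smallest.

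Csf1r, the receptor of colony-stimulating factor 1, stood at 51.2, 50.9 and 46.7 CPM in KO and at 27.4, 18.6 and 24.0 CPM in WT. Every KO library was above every WT library, with a log2 change of 1.09 ± 0.12. Spi1, which encodes PU.1, stood at 8.05, 6.59 and 7.55 CPM in KO and at 2.83, 3.78 and 4.29 CPM in WT. WT replicate 1 was lowest here, unlike most members, and the log2 change was 1.03 ± 0.17. Csf3r, the granulocyte colony-stimulating factor receptor, had 15 to 41 counts in KO and 11, 0 and 12 in WT, with a log2 change of 1.64 ± 0.88. The ligands of CSF1R, which are no members, were tested: Csf1 was higher in KO (487 ± 17.9 against 423 ± 4.88 CPM, mean ± SD, n = 3 each, log2 0.20 ± 0.03, edgeR adjusted p = 0.000577). Il34, the other ligand, was lower (41.5 ± 1.31 against 49.2 ± 4.02 CPM, n = 3 each, log2 -0.25 ± 0.06, edgeR adjusted p = 0.0157), a call lost without KO replicate 1 (adjusted p = 0.0634), KO replicate 2 (0.0535) or WT replicate 3 (0.0587). On FPKM, the ratio of Csf1r to Csf1 was 0.0844 to 0.0991 in KO and 0.0395 to 0.0598 in WT. Because Csf1r is a member, this ratio is a description and was not tested.

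The β2 integrins pair the shared chain Itgb2 with an α chain and mediate adhesion and uptake of complement-coated particles. Itgb2 stood at 18.7, 21.3 and 19.8 CPM in KO and at 8.06, 6.96 and 9.48 CPM in WT. The groups were far apart, and the log2 change was 1.29 ± 0.11. Itgam, the CD11b chain of the complement receptor Mac-1, stood at 23.1, 23.2 and 24.3 CPM in KO and at 10.6, 8.93 and 7.68 CPM in WT. The KO values were more than 2 times the highest WT value, and the log2 change was 1.37 ± 0.11. The ratio of Itgam to Itgb2, on FPKM, was 0.749, 0.661 and 0.747 in KO and 0.800, 0.779 and 0.492 in WT, so the ratios overlapped. Itgal, the CD11a chain of LFA-1, was far lower per length (0.509 ± 0.0845 against 0.154 ± 0.0384 FPKM) and changed by 1.67 ± 0.23 on the log2 scale. Apbb1ip, the RIAM protein that links RAP1 to talin and integrin activation, stood at 18.3, 17.9 and 18.2 CPM in KO and at 13.3, 13.7 and 14.2 CPM in WT. Relative to the mean, its libraries were the closest together of this group in either genotype, the groups did not overlap, and its log2 change of 0.40 ± 0.06 was the smallest of the 39.

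Of the leukocyte surface proteins, Adgre1, which encodes the macrophage antigen F4/80, stood at 32.9, 32.1 and 31.1 CPM in KO and at 15.9, 12.4 and 18.2 CPM in WT. All KO libraries exceeded all WT libraries, with a log2 change of 1.05 ± 0.11. Cd53, a pan-leukocyte tetraspanin, stood at 7.50, 7.86 and 7.16 CPM in KO and at 3.64, 2.16 and 4.26 CPM in WT. WT replicate 2 was lowest, and the log2 change was 1.16 ± 0.21. The other members of this group changed by 1.06 (Cd37, another tetraspanin) to 1.47 (Cd84, a SLAM family receptor) on the log2 scale. Ptprc, the pan-leukocyte phosphatase CD45, changed by 1.37 ± 0.15, from 0.171 ± 0.0351 to 0.460 ± 0.0283 FPKM. Cd48, a ligand within the SLAM system, changed by 1.38 ± 0.33. Cd52, a small glycosylphosphatidylinositol-anchored leukocyte protein, had 67 to 72 counts in KO and 11 to 43 in WT, with a log2 change of 1.38 ± 0.46.

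The sensing and lipid mediator genes gave the smallest median change of any role, 0.92. Alox5ap, which presents arachidonic acid to 5-lipoxygenase, stood at 16.5, 14.2 and 14.0 CPM in KO and at 8.74, 7.52 and 7.44 CPM in WT. The log2 change was 0.92 ± 0.10 with no overlap. C3ar1, the receptor of the complement fragment C3a, stood at 18.8, 17.6 and 18.9 CPM in KO and at 8.65, 6.73 and 7.79 CPM in WT. All KO values were at least 2 times the highest WT value, with a log2 change of 1.26 ± 0.10. Cd14, the co-receptor of TLR4 for bacterial lipopolysaccharide, stood at 5.27, 3.51 and 6.10 CPM in KO and at 3.62, 3.11 and 3.82 CPM in WT. KO replicate 2 lay inside the WT range, and the log2 change was 0.50 ± 0.20.

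Phagosome and lysosome genes made up most of the summed level, 849 to 927 CPM in KO and 332 to 440 CPM in WT. Lyz2, lysozyme M, stood at 747, 759 and 684 CPM in KO and at 358, 280.3 and 370.4 CPM in WT. The genotypes were separated by a wide gap, with a log2 change of 1.12 ± 0.09. Its paralog Lyz1 stood at 3.76 ± 0.426 against 1.80 ± 0.503 CPM (n = 3 each), and reads shared by the 2 genes could be split either way. Ctss, the lysosomal protease cathepsin S, stood at 46.1, 44.0 and 49.3 CPM in KO and at 17.9, 12.3 and 16.9 CPM in WT, and changed by 1.56 ± 0.12. Per length it was the next most abundant member, at 32.8 ± 1.69 FPKM in KO and 10.7 ± 2.02 FPKM in WT. Cd68, a lysosomal membrane glycoprotein, followed with 26.5 ± 2.10 and 9.81 ± 1.31 FPKM, and changed by 1.38 ± 0.10. Laptm5, a lysosomal membrane protein of blood cells, and Slc11a1, a metal ion transporter of the phagosome, changed by 1.19 ± 0.12 and 1.31 ± 0.09.

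The phagocyte NADPH oxidase contributed 2 of these genes, the membrane subunit Cybb and the cytosolic subunit Ncf4. Ncf4 stood at 2.88, 2.58 and 2.13 CPM in KO and at 0.520, 0.168 and 0.909 CPM in WT. WT replicate 2 held 11 counts and WT replicate 3 held 61, and the log2 change of 2.24 ± 0.45, the largest of the 39, became 2.88 without WT replicate 3. The size of the Ncf4 change also leaned on the low WT replicate 2, so its first place is uncertain. Cybb changed by 1.72 ± 0.23. The partners of these subunits, tested as other genes, were higher in 4 of 5 cases. Cyba, the partner of Cybb in the membrane, stood at 45.0 ± 0.812 against 31.2 ± 1.45 CPM (n = 3 each, log2 0.53 ± 0.05, edgeR adjusted p = 3.76e-05). Ncf1 (log2 1.47 ± 0.15, edgeR adjusted p = 4.14e-05), a cytosolic subunit, and Rac2 (1.31 ± 0.12, edgeR adjusted p = 1.83e-05), the GTPase of the complex, were higher too. Hvcn1, the proton channel that balances the oxidase's charge, was lower (log2 -0.58 ± 0.13, edgeR adjusted p = 0.00930).

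Among the actin and small GTPase regulators, Coro1a, a coronin of leukocytes, stood at 8.21, 7.27 and 7.03 CPM in KO and at 4.89, 3.44 and 4.38 CPM in WT, and changed by 0.82 ± 0.15. Cyth4, an exchange factor for ARF GTPases, stood at 10.5, 11.1 and 11.3 CPM in KO and at 5.03, 4.29 and 4.43 CPM in WT, and changed by 1.26 ± 0.10. In both, the lowest KO value was above the highest WT value. Dock2, an exchange factor for RAC in blood cells, and Arhgap30, a GTPase-activating protein, changed by 1.33 ± 0.17 and 1.36 ± 0.20. Aif1, the actin-binding protein IBA1 used to stain macrophages and microglia, stood at 0.694, 0.494 and 1.17 CPM in KO and at 0.367, 0.228 and 0 CPM in WT. With 0 to 24 counts in the WT libraries, its log2 change was 1.98 ± 0.83, and it became 2.77 without WT replicate 1. WT replicate 3 held the 0 counts, so the size of the change rests in large part on that library.

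Of the linker adaptors, Lat2, a scaffold below immune receptors, stood at 2.13, 2.14 and 2.12 CPM in KO and at 0.994, 0.701 and 0.686 CPM in WT, and changed by 1.42 ± 0.24. Blnk, the linker of SYK to downstream enzymes, stood at 2.09, 2.61 and 1.91 CPM in KO and at 0.673, 0.518 and 1.01 CPM in WT, and changed by 1.58 ± 0.29. Both were separate between genotypes in all libraries.

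The rule did not name the order of the libraries within a genotype. A low WT library still raises the contrast on which some members were chosen, so this order is not independent of the choice. Within WT, most of the 39 genes varied together. WT replicate 2 was the lowest WT library for 30 of the 39 genes (76.9%) and the highest for 0, beside 35.1% of all tested genes that were lowest in that library. The median log2 deviation of the 39 genes from the WT mean was 0.15 in WT replicate 1, -0.25 in replicate 2 and 0.18 in replicate 3. In KO the deviations were 0.02, 0.00 and -0.03, so the KO libraries were closer to each other. Genes that vary together within a library are not independent, and this is a description of 3 libraries. Of the 92 other myeloid genes tested, 53 (57.6%) were also lowest in WT replicate 2, with a median deviation of -0.11, as were 6 of 10 osteoblast markers. Without WT replicate 2 the median log2 change of the 39 genes was 1.18 in place of 1.36.

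**Figure D3:**
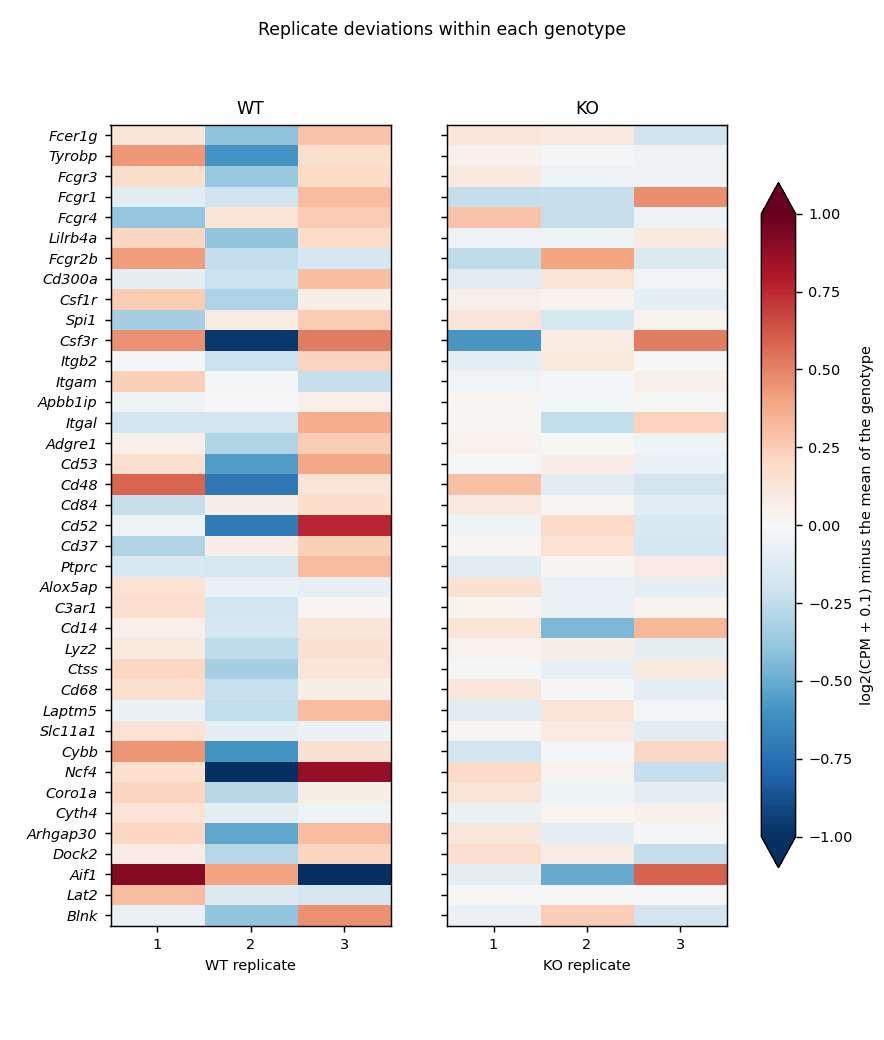
Log2(CPM + 0.1) of each of the 39 genes in each library minus the mean of its genotype, with WT at left and KO at right. Blue cells are below the mean and red cells above it, with the scale ending at 1 in either direction. The column of WT replicate 2 is mostly blue, lowest for 30 of 39 genes, and the KO columns are paler.

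Genes that act with the members but are not among them were tested in lists by role. These lists and the cell type lists below were chosen with earlier results of these data known. Their counts of calls are therefore a description and no independent support. Of 102 such myeloid genes, 98 were in the table and 92 were tested. edgeR called 45 of the 92 higher in KO and 8 lower, with a median log2 change of 0.76, beside 11.2% and 11.7% called among all tested genes. In each list the 3 most abundant genes are named, and further genes were named after their values were seen. In the 5 myeloid lists with 0 lower calls, and in the resident macrophage subtypes, 0 genes were lower at an unadjusted p under 0.05 by edgeR, or called lower by DESeq2 or limma.

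In the list of signalling proteins behind ITAM receptors, 12 of 16 tested genes were higher and 0 lower, with a median log2 change of 1.05. The list also holds receptors, Sirpa and Pirb among them, so these counts are not of downstream proteins alone. Sirpa, the receptor for the CD47 signal on other cells, stood at 91.3 ± 2.58 against 67.5 ± 1.63 CPM (n = 3 each, log2 0.44 ± 0.04, edgeR adjusted p = 1.33e-05). Lyn, a SRC family kinase, changed by 0.64 ± 0.07 (edgeR adjusted p = 9.13e-05). Sh3bp2, an adaptor also present in other cells, was not called (log2 0.08 ± 0.08, edgeR adjusted p = 0.524). Integrin partners were higher in 3 of 6 genes and lower in 0: Fermt3, the kindlin of blood cells (log2 1.54 ± 0.15, edgeR adjusted p = 3.04e-05), Itga4, an α integrin chain (0.68 ± 0.14, edgeR adjusted p = 0.00446), and Skap2, an adaptor (0.40 ± 0.06, edgeR adjusted p = 0.00116). Haematopoietic actin regulators were higher in 9 of 14 genes and lower in 2, with a median of 0.79. Lcp1, the plastin of leukocytes, changed by 1.12 ± 0.12 (edgeR adjusted p = 8.66e-05) and Arhgdib, an inhibitor of small GTPases, by 0.52 ± 0.03 (edgeR adjusted p = 5.34e-07). Evi2a, a leukocyte membrane protein, is counted in this list, so these counts are not of actin regulators alone. It changed by 0.73 ± 0.17 (edgeR adjusted p = 0.0108), a call lost without KO replicate 1 (adjusted p = 0.0552). The lower genes were Dock8 (log2 -0.83 ± 0.05) and Elmo1 (-0.39 ± 0.10), 2 regulators of small GTPases, and the call of Elmo1 was lost without KO replicate 2, WT replicate 1 or WT replicate 3.

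Chemokine and purine receptors of myeloid cells were higher in 4 of 8 tested genes and lower in 0, with a median of 1.40. Cx3cr1, the fractalkine receptor, stood at 4.48, 4.40 and 4.12 CPM in KO and at 0.780, 1.01 and 0.969 CPM in WT (log2 2.24 ± 0.18, edgeR adjusted p = 1.03e-05). P2ry6 and P2ry12, receptors of extracellular nucleotides, changed by 1.21 ± 0.17 (edgeR adjusted p = 0.000472) and 1.89 ± 0.31 (edgeR adjusted p = 0.00145). Partners of the leukotriene and complement receptors were higher in 2 of 6 genes and lower in 0. Alox5, the enzyme served by Alox5ap, changed by 1.75 ± 0.27 (edgeR adjusted p = 0.000821) and C5ar1, the C5a receptor, by 1.02 ± 0.14 (edgeR adjusted p = 0.000469). Lta4h, which makes leukotriene B4 and is widely expressed, was not called (log2 -0.05 ± 0.05, edgeR adjusted p = 0.504). Of the 5 colony-stimulating factor genes tested, Csf2ra, the α chain of the GM-CSF receptor (log2 0.86 ± 0.11, edgeR adjusted p = 0.000214), and Csf2rb, its β chain (1.89 ± 0.28, edgeR adjusted p = 0.000707), were higher beside Csf1.

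Other myeloid lists gave fewer calls or calls in both directions. Of 11 myeloid transcription factors, 3 were higher and 3 lower, with a median log2 change of 0.30. Irf8 (1.44 ± 0.24), Ikzf1 (0.93 ± 0.22) and Runx1 (0.30 ± 0.05) were higher, and the call of Ikzf1 was lost without KO replicate 1. Maf (-0.29 ± 0.03) and Cebpa (-0.24 ± 0.04), a factor of myeloid progenitors, were among the lower ones. Cebpb was not called (0.21 ± 0.08, edgeR adjusted p = 0.0865), but was called higher without KO replicate 3 (adjusted p = 0.0353), with the replicate block (0.0384), with library totals (0.0405) and with limma on log2(FPKM + 1) above its filter on low values (0.0448). Of 9 genes of MHC class II presentation and co-stimulation, Cd80, a ligand of CD28, was higher (24.2 ± 1.94 against 6.43 ± 1.11 CPM, n = 3 each, log2 1.91 ± 0.12, edgeR adjusted p = 1.56e-06). Cd74, the invariant chain, was lower (log2 -0.98 ± 0.23, edgeR adjusted p = 0.0114), and 7 genes were not called, H2-DMa (0.23 ± 0.14) and H2-DMb1 (0.21 ± 0.08) among them. H2-DMb1 was called higher without KO replicate 2 (adjusted p = 0.0481), with library totals (0.0305) and with the same limma fit (0.0178). Of 12 genes of the Toll-like receptor machinery, Tlr1 (log2 0.60 ± 0.14), Tlr8 (1.35 ± 0.24), Tlr13 (1.498 ± 0.12) and Cd180 (0.96 ± 0.14) were higher and 0 lower. Its 3 most abundant genes, Myd88 (log2 0.14 ± 0.06), Tlr2 (0.20 ± 0.08) and Tlr4 (-0.11 ± 0.08), were not called. Myd88 and Tlr2 were called higher with library totals in place of TMM and with that limma fit. Without its filter, limma called none of Cebpb, H2-DMb1, Myd88 and Tlr2.

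**Figure D4:**
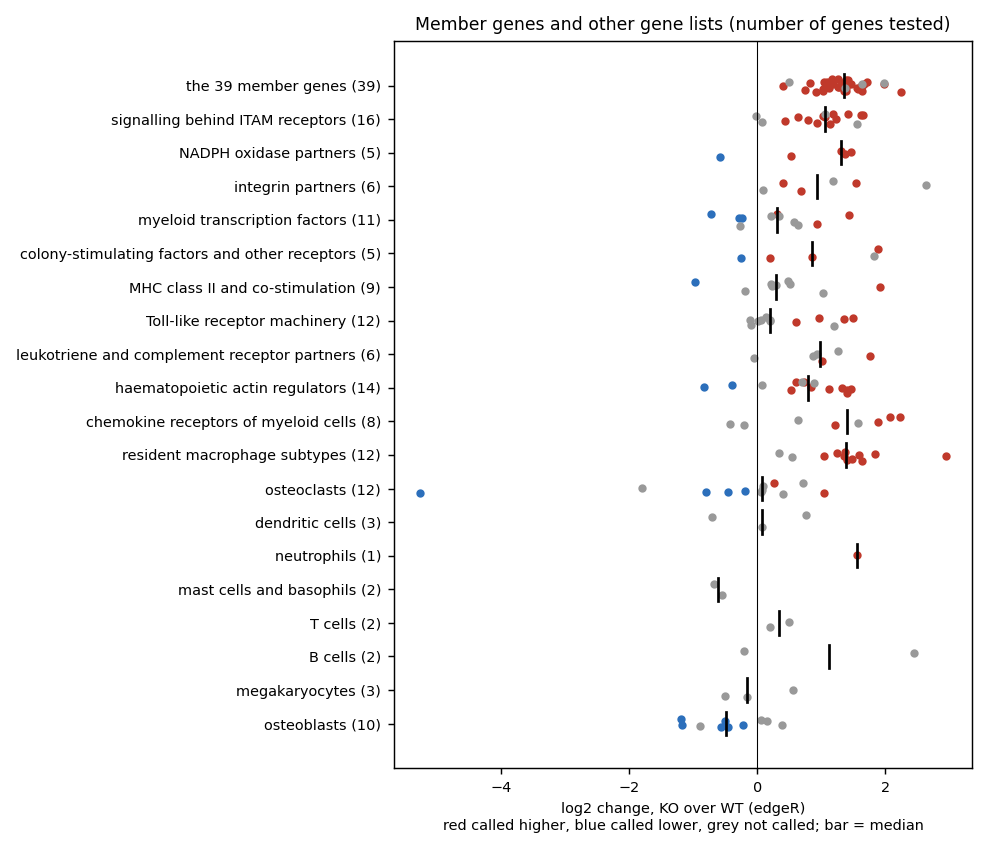
Log2 change of KO over WT for the 39 genes and for each list of other genes with tested members, each point 1 gene and the black bar the median of the list. Red points were called higher, blue points lower and grey points neither. The median is 1.36 for the 39 genes, 1.39 for resident macrophage subtypes, 0.07 for osteoclasts and -0.48 for osteoblasts, and several lists of other blood cells hold 3 or fewer tested genes.

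Markers of other cell types were read beside these genes. Resident macrophage subtype markers were higher in 10 of 12 tested genes and lower in 0, with a median log2 change of 1.39. Their summed level was 393 to 430 CPM in KO and 156 to 183 CPM in WT. Gpnmb, a glycoprotein of macrophages and osteoclasts that osteoblasts also express, stood at 149.9 ± 1.48 against 73.1 ± 4.32 CPM (n = 3 each, log2 1.04 ± 0.04, edgeR adjusted p = 7.10e-08). C1qa (log2 1.64 ± 0.16, edgeR adjusted p = 4.30e-05) and C1qb (1.48 ± 0.10, edgeR adjusted p = 2.59e-06), chains of complement C1q, were higher too. Timd4 and Lyve1, markers of some resident macrophages, had too few counts to be tested.

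Osteoclast markers gave calls in both directions. Of 12 tested, 2 were higher and 4 lower, with a median log2 change of 0.07. The summed level of the list was 431 to 446 CPM in KO and 667 to 676 CPM in WT. Most of the difference in this sum came from Mmp9 and from Ctsk (218 ± 3.77 against 298 ± 6.35 CPM). Mmp9, a gelatinase, stood at 3.36, 3.40 and 4.41 CPM in KO and at 147, 135 and 149 CPM in WT (log2 -5.27 ± 0.09, edgeR adjusted p = 6.56e-10). Ctsk, a collagen-degrading protease read as an osteoclast marker, changed by -0.45 ± 0.03 (edgeR adjusted p = 1.11e-06). Which cells gave the Mmp9 and Ctsk reads was not tested. Clcn7, a lysosomal chloride transporter, changed by -0.19 ± 0.05 (edgeR adjusted p = 0.0154). The call was lost in edgeR without KO replicate 1 (adjusted p = 0.0508), without WT replicate 1 (0.0654) and with library totals (0.0557). Limma on log2(FPKM + 1) lost it as well (0.0606), also with a pseudocount of 0.1 (0.0611) and without a filter (0.114). Itgb3 was lower as well (log2 -0.80 ± 0.07). Tnfrsf11a, the RANK receptor (1.05 ± 0.27), and Tcirg1, a proton pump subunit (0.27 ± 0.07), were higher, calls that were lost without KO replicate 2 for Tnfrsf11a and without WT replicate 1 or 2 for Tcirg1. Acp5, the enzyme TRAP, stood at 14.2 ± 0.670 against 13.6 ± 1.06 CPM (n = 3 each, edgeR adjusted p = 0.642). Nfatc1 (log2 0.08 ± 0.06, edgeR adjusted p = 0.368) and Ostm1 (0.09 ± 0.06, edgeR adjusted p = 0.337) were not called either. The remaining markers analysed were near the floor. Ocstamp (0 to 23 counts), Oscar (14 to 57) and Atp6v0d2 (20 to 91) were not called, and Car2 had too few counts to be tested. Of the 15 listed markers, 2 were not analysed here.

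Markers of other blood cells were few and low, though some were at levels like those of the scarcer members. Ighm stood at 3.49 to 5.95 CPM, Itga2b at 2.98 to 3.64 CPM and Zbtb46 at 1.37 to 3.49 CPM. Of the neutrophil list, Mpo, Ly6g, Camp and S100a8 stood under 0.2 CPM in every library and were not tested, and Mmp8 alone was tested (log2 1.56 ± 0.33, edgeR adjusted p = 0.00593). Summed levels were at most 1.66 CPM for neutrophil markers, 0.777 for mast cells and basophils, 1.31 for T cells, 4.23 for dendritic cells, 6.27 for B cells and 5.92 for megakaryocytes in any library. None of the tested markers of mast cells and basophils (Cpa3, Hdc), T cells (Lck, Cd28), B cells (Ighm, Cd22), dendritic cells (Zbtb46, Ccr7, Clec10a) or megakaryocytes (Itga2b, Pf4, Gp1ba) was called. At an unadjusted p under 0.05, edgeR gave Zbtb46 lower and Cd22 and Pf4 higher. DESeq2 called Zbtb46 lower and Cd22 higher, edgeR called Zbtb46 lower without KO replicate 3 and Cd22 higher without WT replicate 3, and limma on log2(FPKM + 1) called Pf4 higher. No marker of NK cells was analysed here, and the 3 erythroid markers in the table were too low to test. The part of any other cell type, and of the lower osteoblast markers, in the levels of the 39 genes was not tested.

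The members also share annotation and position. In the KEGG column of the authors' deposited table, 11 of the 39 genes carried the term Phagosome, of 146 genes in the table, and 5 of 93 carried Fc gamma R-mediated phagocytosis. The term Osteoclast differentiation was carried by 10 of the 39, among 125 genes. Of the 121 of these that were tested, 39 were called higher, of which 10 are members and 29 are not, and 15 were called lower, beside 11.2% and 11.7% of all tested genes. By the deposited coordinates, whose genome build is not settled, 9 of the 39 genes lie on chromosome 1 and 5 on chromosome 7. Fcgr2b, Fcgr3, Fcgr4 and Fcer1g lie within 275.7 kb of chromosome 1, and with Arhgap30, Cd48 and Cd84 within 932.1 kb. The 7 genes of this stretch changed by 1.14 to 1.64 on the log2 scale.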

How the data were processed

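Bulk poly(A) RNA-seq of calvarial osteoblasts was analysed, with 3 KO and 3 WT libraries grouped and numbered by the labels. The deposited table held whole-number counts per gene and FPKM for each library, per the file headers. The authors computed the FPKM values, which are scaled to transcript length and library total. The method by which the authors assigned reads to genes, strand and shared reads included, is not given in the sources used here. Per the submitters' processing notes, cutadapt 1.9, HISAT2 2.0.4 and StringTie 1.3.4d were used, and a human build is listed beside mouse identifiers.

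The quasi-likelihood test of edgeR 4.0.16 was run on the counts after filterByExpr and TMM scaling (two-sided, Benjamini-Hochberg adjustment over all 18221 tested genes, adjusted p under 0.05) in R 4.3.3. CPM are TMM-scaled. The common biological coefficient of variation was 12.6%. At 61461870 to 76159034 counts per library the spread between libraries sets the precision, except for genes of few counts. Replicates of a genotype differed beyond sampling noise in every pair. The procedure was tested on simulated data. DESeq2 1.42.0 and limma 3.58.1 were alternatives, with other scalings and filters, a replicate block and leaving out each library.

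The members and all lists were chosen with earlier results of these data known. Values per library are printed for the 2 members of each role with the highest mean FPKM and the 3 largest and 3 smallest changes, and of each other list the 3 tested genes of highest mean FPKM are named. Other genes of these lists (such as Irf8, Hvcn1, Dock8, Elmo1, Cd74 and Itgb3) were named after their values were seen, and some genes of the lists are counted but not reported here by name. Of the listed genes, 35 were not analysed here. Promoters came from RefSeq (GRCm38.p6), and GENCODE M21 coordinates matched the deposited ones for 0 of the 39 genes.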

Additional observations from a re-analysis of the deposited data

How the results depend on the processing

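All 39 genes, where fitted, had a positive change in every alternative listed, and the median over all genes shifted by under 0.1 log2 with each scaling. Their median log2 change was 1.18 to 1.40 when single libraries were left out, with 1.18 without WT replicate 2, and 0.968 with limma on log2(FPKM + 1) or 0.805 without its filter, where the pseudocount compresses low genes. Limma with a minimum mean of 1 FPKM fitted 23 members and called 22 with either pseudocount, against 35 of 39. Genes called lower fell from 2131 to 1267 with limma on log2(FPKM + 1), 1254 with a pseudocount of 0.1 and 1246 without a filter. The cause was not tested. Leaving out single libraries gave 33 to 35 members called, 41 to 47 other myeloid genes called higher and 21 to 25 cell type markers called, against 45 and 23.

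No shared effect of the replicate number was seen: deviations from the group means correlated at -0.0445, -0.0301 and -0.0069 between same-numbered KO and WT libraries. Whether same-numbered libraries shared a litter, day or batch is not given in the labels, and these values cannot decide it. With a replicate block, 34 members were called, with a median of 1.38, and 1912 genes were called higher and 1976 lower. For 67 named genes of the other lists, 953 alternative values were computed, of which 24 lost a call and 22 gained one. Limma on log2(FPKM + 1) without a filter lost the calls of Hvcn1, Itga4, Ikzf1, Il34, Cd74, Elmo1, Evi2a and Clcn7 (limma adjusted p = 0.0538 to 0.217). For 24 named members, 343 values were computed, of which 24 moved by more than the spread between replicates. None reversed. Genes with few counts, such as Csf3r, Aif1, Cd52 and Fcgr4, limit the precision most.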
